A study of Homo sapiens with 6 samples.

Results

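The dual-specificity MAPK phosphatases described here are 10 genes chosen by symbol: DUSP1, DUSP4, DUSP5, DUSP6, DUSP7, DUSP8, DUSP10, DUSP14, DUSP15 and DUSP16. All 10 had a row, matched by Ensembl identifier, in each of the 6 deposited tables of 30330 genes, and all 10 passed the filter on low values. They were read as 3 ERK-selective genes (DUSP5, DUSP6, DUSP7), 2 nuclear genes of broad specificity (DUSP1, DUSP4), 3 stress-kinase genes (DUSP8, DUSP10, DUSP16) and 2 atypical genes (DUSP14, DUSP15). The study profiled RNA of H1975/OSI, a line derived from NCI-H1975 (human lung adenocarcinoma cells with activating EGFR mutations), against control NCI-H1975. Per the labels, osimertinib, an inhibitor of the EGFR kinase, was given at 0.03, 0.1, 0.3, 1 and 3 µM over 7 months, which gave a line resistant at 3 µM. There were 3 resistant libraries (titled Drug) and 3 control libraries, and each group is 1 cell line. Whether drug was present at harvest, and whether replicates were separate cultures, is not stated, so p-values measure the spread between libraries, which may be technical.

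MAP kinases are switched on by phosphorylation of a threonine and a tyrosine, and dual-specificity phosphatases remove both phosphates. Several of these genes are transcribed when the kinase they oppose is active, which makes them feedback inhibitors as well as readouts of the pathway. In lung cancer cells driven by mutant EGFR, DUSP6 transcripts are known to depend on signalling through MEK and ERK.

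All members share a catalytic signature in which a histidine and a cysteine precede a glycine and an arginine. The 36 coding bases around it are shown because they are the feature that all members have in common, and because they show which members are most alike. They run 5′ to 3′ on the coding strand of GENCODE 29 transcripts (GRCh38), with the codon of the catalytic cysteine in capitals.
DUSP5: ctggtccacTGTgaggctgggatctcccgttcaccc
DUSP6: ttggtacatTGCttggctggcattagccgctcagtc
DUSP7: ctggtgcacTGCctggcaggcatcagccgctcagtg
DUSP1: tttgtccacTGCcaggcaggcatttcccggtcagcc
DUSP8: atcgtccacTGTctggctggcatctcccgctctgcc
DUSP10: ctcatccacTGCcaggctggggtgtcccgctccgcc
DUSP16: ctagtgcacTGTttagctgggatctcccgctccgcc
DUSP14: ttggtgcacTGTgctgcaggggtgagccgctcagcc
DUSP15: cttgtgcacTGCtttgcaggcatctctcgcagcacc

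Of the 36 positions, 13 held the same base in all 9 sequences shown. DUSP4 is not among these sequences and was not compared. Of the pairs compared, the closest were DUSP6 with DUSP7 and DUSP8 with DUSP16, at 29 identical bases each. DUSP15 shared 21 bases with DUSP6 and 21 with DUSP14. The DUSP6 window lies in exon 3 of 3 on chromosome 12 (89349497 to 89349532, minus strand), and the DUSP8 window in exon 5 of 6 on chromosome 11 (1557853 to 1557888, minus strand). The DUSP15 window is split between exons 5 and 6 on chromosome 20 (31862718 to 31863917, minus strand). The atypical proteins are short and lack the kinase-binding domain at the amino end: the cysteine was codon 111 of 198 in DUSP14 and 88 of 235 in DUSP15, against 293 of 381 in DUSP6. In the stress-kinase genes DUSP8 and DUSP16 it was codon 246 of 625 and 244 of 665, which leaves a long stretch after the catalytic site.

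Recovered totals were 15174126 to 16276518 reads in resistant libraries and 15813497 to 16588479 reads in control libraries. Resistant library 1 stood apart, with a chi-square per gene of 10.8 and 12.1 against the other resistant libraries, which differed from each other by 2.32; control pairs ranged from 2.43 to 3.66. Mitochondrial genes took 5.33 to 5.66% of reads in resistant and 6.46 to 7.34% in control libraries. The summed lung and epithelial markers (9 of 9 in the tables) were 40681 to 47451 in resistant and 58953 to 62262 in control libraries. KRT7, KRT8 and KRT18 were abundant in both groups. KRT8 (16385 in resistant, 23304 in control) and KRT18 (7556 in resistant, 10013 in control) were lower in resistant libraries, and KRT7 did not pass. SFTPB was near 0, and EPCAM averaged 17.6 normalized read counts in resistant and 379 in control libraries. CDH1 (116 in resistant, 368 in control) and KRT19 (5874 in resistant, 12960 in control) were also lower in resistant libraries, and NKX2-1 (461 in resistant, 287 in control) was higher. The summed fibroblast list (5 of 6 markers in the tables) was 33091 to 36268 in resistant and 5059 to 6077 in control libraries, and the difference was in COL1A2 (29275 in resistant, 698 in control), while COL1A1 averaged 4963 in resistant and 4808 in control libraries and did not pass, with LUM at 0 in every control library and FAP at a mean of 1.58 in resistant and 6.78 in control libraries. Leukocyte markers (3 of 5 in the tables) summed to 35.1 to 59.1 in resistant and 26.0 to 35.9 in control libraries, and endothelial markers (3 of 3) to 557 to 751 in resistant and 289 to 329 in control libraries; CDH5 was higher (579 in resistant, 126 in control), PECAM1 lower (83.3 in resistant, 181 in control) and VWF near 0. The part of these differences in the results below was not tested, and in bulk RNA fewer cells of a type cannot be told apart from less RNA per cell.

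The resistant line had less transcript of all 3 ERK-selective phosphatases and of both broad nuclear ones, while 2 stress-kinase genes and 1 atypical gene were higher, 1 stress-kinase gene was lower and 1 atypical gene did not pass the test. Normalized read counts are the deposited values (reads of a gene over its library's single size factor). They were tested with limma on log2(value + 1) over 24560 genes, with an adjusted p under 0.05 as the threshold. Of the 10 members 9 passed, against 41.5% of all genes tested. Members were chosen with earlier results of these data known, so this count and those below are not independent evidence of a difference from other genes. Lower in resistant libraries were 6 members, where 21.1% of all genes were, and higher were 3, where 20.4% of all genes were. Of all calls 49.1% were higher, and 35.8% with median centring, under which 2 members were higher and 6 lower. The groups did not overlap for 9 members, against 50.1% of all genes, and 6 members passed with a 2-fold or larger change, against 13.6%. The shares over all genes include many genes at low values and were not matched to the level of the members. The median log2 fold change was -2.06 over the ERK-selective, -1.41 over the broad nuclear, 0.23 over the stress-kinase and 2.74 over the atypical members, beside 0.01 over all genes tested. Medians of so few genes describe the classes and were given no test.

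**Figure D1:**
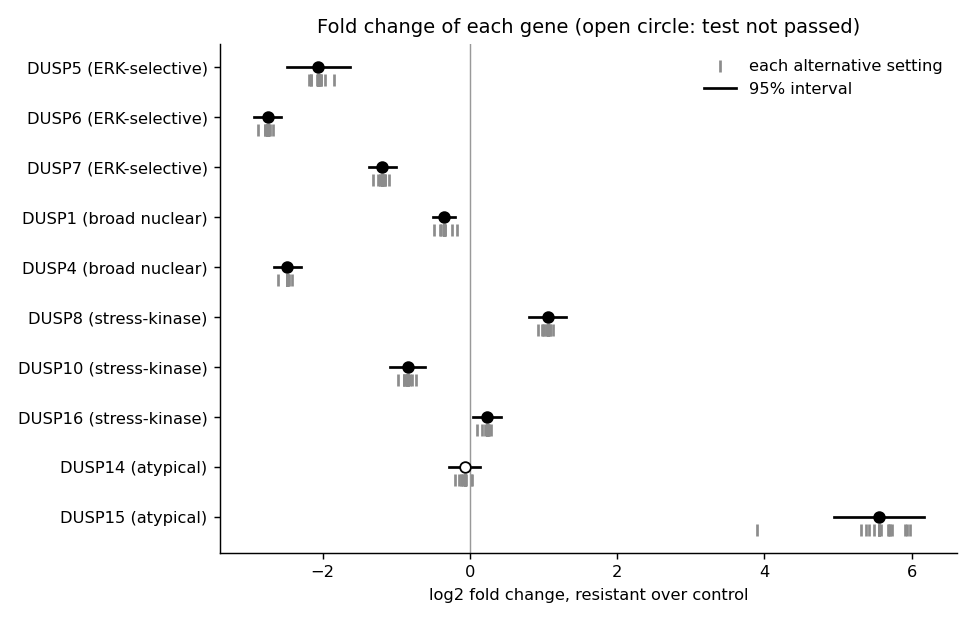
log2 fold change of each gene, resistant over control, with its 95% interval (black) and the value under each of 17 alternative settings (grey ticks). The 3 ERK-selective genes lie at or below -1.19, DUSP14 spans 0, and DUSP15 stands far to the right at 5.56.

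DUSP6, the cytoplasmic phosphatase specific for ERK and itself a target of ERK signalling, fell furthest among the members. It lies on chromosome 12 from 89347232 to 89353271 (ENSG00000139318, minus strand). It had 151, 161 and 152 normalized read counts in resistant libraries 1, 2 and 3, against 997, 1039 and 1100 in control libraries 1, 2 and 3. Each resistant library held less than a sixth of the lowest control, and neither group spread by more than 4.94% (CV). DUSP6 thus had a log2 fold change of -2.75 ± 0.09 (SE), with a limma adjusted p of 6.84e-17. An unnamed antisense gene, ENSG00000274021, overlaps DUSP6 and covers 37.1% of its stretches of 50 bases on the opposite strand. It averaged 2.30 ± 1.60 in resistant and 11.3 ± 6.12 in control libraries (SD, n = 3). Whether counting used strand is not stated, and without it reads of this gene and of DUSP6 cannot be told apart.

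DUSP5, a nuclear phosphatase that also acts on ERK and is induced by it, was the second of the ERK-selective genes to fall by more than 2 on the log2 scale. DUSP5 (chromosome 10, 110497838 to 110511544, ENSG00000138166, plus strand) had 541, 833 and 836 normalized read counts in resistant libraries 1, 2 and 3, against 2962, 2936 and 3132 in control libraries. Resistant library 1 was well below the other resistant libraries, which gave a CV of 23.0% in that group and 3.54% in control. The log2 fold change was -2.06 ± 0.18 (SE, limma adjusted p = 0.000126), and it was -1.85 without resistant library 1. DUSP5-DT, a non-coding transcript that starts next to DUSP5 and runs the other way, was also lower, at 3.19 ± 2.28 in resistant and 13.9 ± 8.44 in control libraries (SD, n = 3; log2 fold change -1.85, limma adjusted p = 0.00727). DUSP5P1, a processed pseudogene of DUSP5 on chromosome 1, went the other way, with 123 ± 17.3 in resistant and 60.4 ± 10.9 in control libraries (limma adjusted p = 4.88e-05), and shared none of its 50-base stretches with DUSP5.

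DUSP7, a cytoplasmic relative of DUSP6, showed the smallest difference of the ERK-selective genes. DUSP7 (chromosome 3, 52048919 to 52056550, ENSG00000164086, minus strand) had 351, 382 and 368 normalized read counts in resistant libraries, against 808, 945 and 770 in control libraries. The groups did not overlap, and the highest resistant library was below the lowest control by a wide margin. Its log2 fold change was -1.19 ± 0.09 (SE), with a limma adjusted p of 1.27e-10.

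The broad nuclear phosphatases differed in the size of their fall. DUSP4, which can act on ERK and on JNK, had 153, 156 and 158 normalized read counts in resistant libraries, against 889, 868 and 859 in control libraries (chromosome 8, 29333064 to 29350668, ENSG00000120875). Its groups did not overlap and were tight, with a CV of 1.58% in resistant and 1.80% in control libraries, and the log2 fold change was -2.48 ± 0.09 (SE, limma adjusted p = 4.24e-16). DUSP1, an immediate early gene whose product acts on p38, JNK and ERK, had 6780, 8480 and 8363 normalized read counts in resistant libraries, against 10003, 9916 and 10019 in control libraries (chromosome 5, 172768090 to 172771195, ENSG00000120129). All resistant libraries were below all control libraries, with library 1 the lowest. The log2 fold change of DUSP1 was -0.35 ± 0.07 (SE, limma adjusted p = 0.000357), and -0.24 without resistant library 1. The DUSP1 call ended with quantile normalization (-0.18, limma adjusted p = 0.385) and with limma without trend (adjusted p = 0.0769); over its 17 alternatives the adjusted p ran from 2.91e-06 to 0.385.

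**Figure D2:**
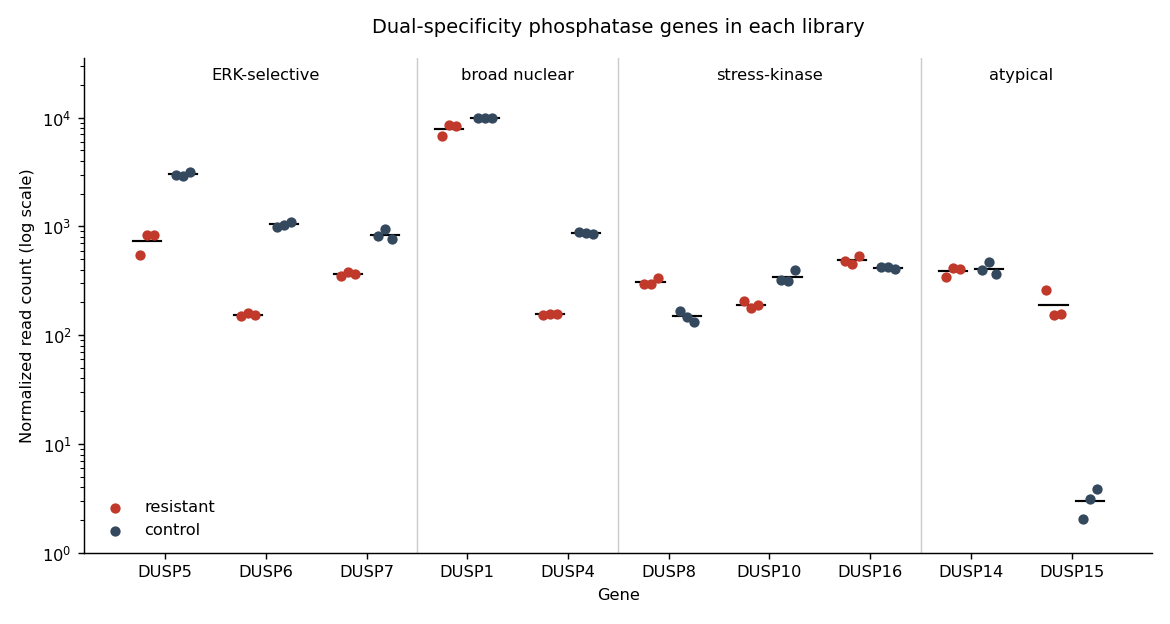
Normalized read count (log axis) of each of the 10 genes in each library, with resistant libraries in red on the left and control libraries in dark blue on the right of each pair; black bars are group means. DUSP6 and DUSP4 sit near 155 in resistant libraries, and DUSP15 is at 2.05 to 3.86 in control libraries.

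The stress-kinase phosphatases, which act on JNK and p38, did not move together. DUSP8 had 297, 294 and 336 normalized read counts in resistant libraries, against 165, 148 and 133 in control libraries (chromosome 11, 1554044 to 1571920, ENSG00000184545). Every resistant library was above every control library, and the log2 fold change was 1.05 ± 0.12 (SE, limma adjusted p = 1.33e-07). Processed pseudogenes of DUSP8 could share its reads, but 1.90% of its 50-base stretches occurred in another gene, and DUSP8P5 averaged 59.5 ± 4.52 in resistant and 70.1 ± 23.1 in control libraries (SD, n = 3; limma adjusted p = 0.522).

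DUSP10 went the other way, with 205, 176 and 190 normalized read counts in resistant libraries, against 318, 318 and 399 in control libraries (chromosome 1, 221701424 to 221742176, ENSG00000143507). Its groups did not overlap, and its log2 fold change was -0.85 ± 0.12 (SE, limma adjusted p = 2.16e-06). DUSP16, which shuttles between nucleus and cytoplasm, had 485, 451 and 540 normalized read counts in resistant libraries, against 426, 422 and 406 in control libraries (chromosome 12, 12474210 to 12562383, ENSG00000111266). The groups were close but did not overlap. The log2 fold change of DUSP16 was 0.23 ± 0.09 (SE, limma adjusted p = 0.0447), at the edge of the threshold. The call was lost under 9 of 17 alternatives. Among them were DESeq2 (adjusted p = 0.0779) and median centring (log2 fold change 0.10, limma adjusted p = 0.444). Others were removal of resistant library 3 (log2 fold change 0.16) or of control library 1, 2 or 3 (log2 fold changes 0.25, 0.24 and 0.21). Over the 17 alternatives the adjusted p of DUSP16 ran from 0.0270 to 0.444.

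Of the atypical phosphatases, DUSP15 was higher in resistant libraries and DUSP14 did not pass the test. DUSP15, whose product carries a lipid anchor, had 261, 153 and 157 normalized read counts in resistant libraries, against 2.05, 3.12 and 3.86 in control libraries (chromosome 20, 31847637 to 31870747, ENSG00000149599). These were 256, 166 and 159 reads in resistant libraries, against 2, 3 and 4 reads in control libraries. Resistant library 1 was the highest, and control libraries were at or near the floor of 3 reads. The ratio of summed reads, scaled for depth, was 62.4, with an exact 95% interval of 32.6 to 137 that covers counting error only. The log2 fold change was 5.56 ± 0.29 (SE, limma adjusted p = 2.73e-13) and ranked 14 by size among the 24560 genes; it was 5.31 without resistant library 1, and 3.91 with a pseudocount of 10. TTLL9, which overlaps DUSP15 by 46 bases on the opposite strand, averaged 2.63 ± 1.25 in resistant and 1.70 ± 1.23 in control libraries (SD, n = 3).

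DUSP14 had 345, 418 and 404 normalized read counts in resistant libraries, against 395, 467 and 368 in control libraries (chromosome 17, 37489831 to 37513501, ENSG00000276023), and the groups overlapped. The log2 fold change was -0.07, with a 95% interval of -0.29 to 0.14 and a limma adjusted p of 0.621. Its sign turned without resistant library 1 (0.011) and without control library 2 (0.023).

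Ratios between members within a library do not depend on the size factors. DUSP6 over DUSP16 was 0.311, 0.356 and 0.282 in resistant libraries, against 2.34, 2.46 and 2.71 in control libraries, a difference of -2.99 on the log2 scale. DUSP6 over DUSP10 was 0.736, 0.911 and 0.798 in resistant libraries, against 3.13, 3.27 and 2.76 in control libraries, and DUSP4 over DUSP10 was 0.746, 0.885 and 0.829 in resistant, against 2.79, 2.73 and 2.15 in control libraries. DUSP6 and DUSP4 were thus lower relative to DUSP10 in each resistant library, although DUSP10 was itself lower there. DUSP1 over DUSP6 was 44.9, 52.8 and 55.0 in resistant libraries, against 10.03, 9.54 and 9.11 in control libraries. Between the atypical genes, DUSP14 over DUSP15 was 1.32, 2.73 and 2.58 in resistant libraries, against 192.5, 149.7 and 95.5 in control libraries. These ratios are of read counts, are not corrected for length, and were given no test.

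Per length, DUSP1 was by far the most abundant member in both groups. Levels were computed as RPKM, reads scaled by the length of the gene's exons and by the library total, with the exon length of GENCODE 29, which equalled the deposited gene length for all members. DUSP1 averaged 256 ± 38.0 RPKM in resistant libraries and 305 ± 5.81 RPKM in control libraries (SD, n = 3), or 82.5% of the summed level of the 10 genes in resistant and 70.8% in control libraries. DUSP5 came next, at 18.5 ± 4.73 RPKM in resistant and 71.0 ± 3.48 RPKM in control libraries. In resistant libraries the order below DUSP5 was DUSP14, DUSP16, DUSP8, DUSP10, DUSP7, DUSP15, DUSP6 and DUSP4; the libraries of DUSP8 and DUSP10, of DUSP10 and DUSP7, and of DUSP7 and DUSP15 overlapped, so these neighbours did not differ beyond their spread. In control libraries it was DUSP6, DUSP14, DUSP7, DUSP4, DUSP10, DUSP16, DUSP8 and DUSP15, with overlap between DUSP14 and DUSP7 and between DUSP4 and DUSP10.

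DUSP6 held rank 9 in resistant libraries, at 2.19 ± 0.124 RPKM, and rank 3 in control libraries, at 13.9 ± 0.830 RPKM (SD, n = 3). DUSP4 held rank 10 in resistant libraries, at 1.41 ± 0.0639 RPKM, against rank 6 in control libraries, at 7.41 ± 0.136 RPKM. DUSP8 held rank 5, at 4.39 ± 0.421 RPKM in resistant libraries, and rank 9, at 1.98 ± 0.205 RPKM in control libraries. All ranks depend on the exon length used, and those in resistant libraries were not checked with another length. With the longest transcript as length, 7 of 10 members kept their rank in control libraries. DUSP7 has 5648 bases of exon and a longest transcript of 3340, against 4632 and 4400 for DUSP6. The rank of DUSP6 in control libraries therefore holds for the exon length only. The summed level of the ERK-selective genes was 24.98 ± 5.13 RPKM in resistant and 94.1 ± 3.65 RPKM in control libraries, with no overlap. That of the stress-kinase genes was 14.3 ± 1.07 RPKM in resistant and 13.8 ± 0.899 RPKM in control libraries, and these ranges overlapped. That of the atypical genes was 13.5 ± 0.382 RPKM in resistant and 10.2 ± 1.11 RPKM in control libraries. Without DUSP1, the members summed to 54.2 ± 5.99 RPKM in resistant and 125 ± 3.80 RPKM in control libraries.

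**Figure D3:**
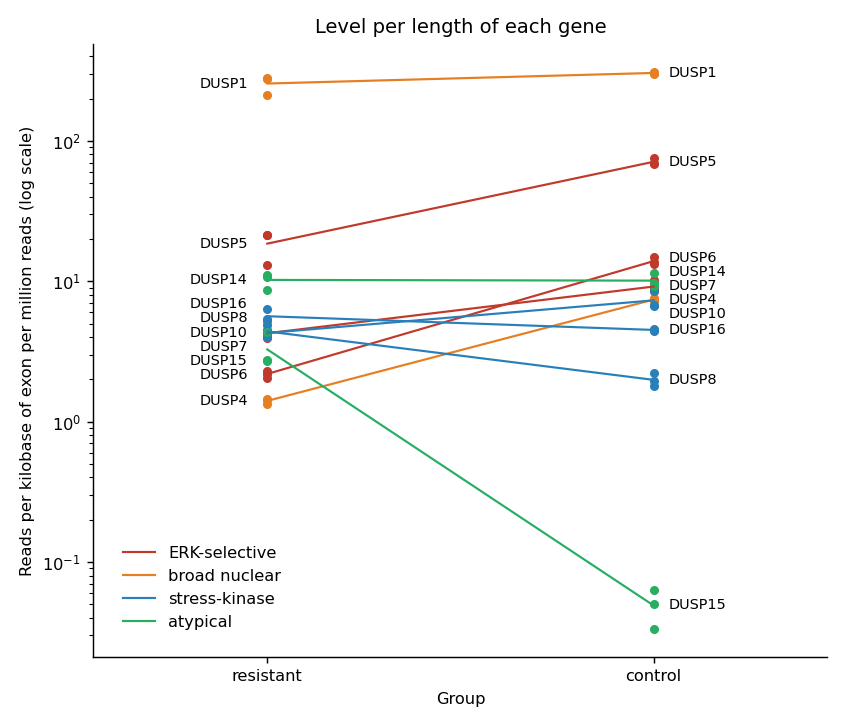
Level of each gene in RPKM (reads scaled by exon length and library total, log axis), resistant libraries on the left and control libraries on the right; points are libraries and lines join group means. DUSP6 and DUSP4 are the lowest at left, at 2.19 and 1.41, and DUSP15 is the lowest at right, at 0.0490.

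Promoter windows from RefSeq (GRCh38.p14, 250 bases before to 50 after the start) were found for 8 members, in 11 windows. No window of DUSP4 or DUSP5 was searched. They were searched on both strands for an ETS site (CCGGAAGT), an AP-1 site (TGANTCA), a cyclic AMP response element (CRE, TGACGTCA), an ATF4 composite site (TGATGNAAT) and an E-box (CACGTG). Matches were found for DUSP1 and DUSP8, and none for the other 6 genes searched, which says only that these letters are not in these windows. The CRE occurs in 1.85% of 35116 windows of the same length, the E-box in 7.26%, the ETS site in 4.14%, the AP-1 site in 7.71% and the ATF4 site in 0.991%. The DUSP1 window had a CRE at positions -125 to -118 from the start and an E-box at -108 to -103, and the DUSP8 window had a pair of CREs, at -118 to -111 and -74 to -67. Both windows are shown because they hold the matches, which are in capitals; DUSP1 was lower and DUSP8 higher in resistant libraries.
DUSP1, chr5:172771146-172771445, minus strand: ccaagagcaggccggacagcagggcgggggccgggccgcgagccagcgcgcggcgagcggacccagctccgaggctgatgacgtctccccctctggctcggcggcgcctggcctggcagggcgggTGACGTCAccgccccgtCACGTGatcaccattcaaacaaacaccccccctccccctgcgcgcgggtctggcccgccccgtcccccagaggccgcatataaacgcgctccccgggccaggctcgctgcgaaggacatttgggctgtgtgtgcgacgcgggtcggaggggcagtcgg
DUSP8, chr11:1572222-1572521, minus strand: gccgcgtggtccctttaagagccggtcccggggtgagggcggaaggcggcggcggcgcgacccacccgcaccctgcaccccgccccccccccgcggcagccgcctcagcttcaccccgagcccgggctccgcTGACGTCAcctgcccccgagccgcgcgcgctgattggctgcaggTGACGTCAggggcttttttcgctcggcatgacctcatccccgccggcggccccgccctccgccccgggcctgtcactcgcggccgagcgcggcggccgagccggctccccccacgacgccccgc

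The RefSeq window of DUSP8 lies outside the gene span given in the deposited tables, and GC content was 73.3% in the DUSP1 and 78.3% in the DUSP8 window, against a median of 58.7% over all windows.

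The members lie apart on the genome, and most had fold changes unlike the median of their chromosomal surroundings. Each was set beside the 25 tested genes on either side, as a description with no test. DUSP6, DUSP4 and DUSP15 lay outside the whole range of their 50 neighbours: the log2 fold changes of their neighbours had medians of 0.14, 0.08 and 0.14, and with 10 genes on either side the median beside DUSP15 was -0.036 and that beside DUSP4 was -0.015. DUSP5, at -2.06, was below 49 of its 50 neighbours, whose median was -0.56, and 42.0% of them were called lower, against 21.1% of all genes. DUSP7, at -1.19, had 4 neighbours below it and a neighbour median of -0.16 (-0.27 with 10 on either side). DUSP10, at -0.85, had 8 neighbours below it and a neighbour median of -0.05.

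DUSP1, on chromosome 5, had a log2 fold change of -0.35 beside a neighbour median of -0.37, with 42.0% of the neighbours called lower. With 10 genes on either side that median was -0.63, and DUSP1 lay above 16 of the 20. DUSP16, at 0.23, also lay within its neighbours, whose median was 0.36 (0.13 with 10 on either side), and DUSP14, at -0.07, had a neighbour median of -0.30 with 36.0% called lower. DUSP8, at 1.05, exceeded 40 of its 50 neighbours (median 0.08). With 10 genes on either side that median was 0.59, and DUSP8 exceeded 12 of the 20. Of those 20 neighbours 55% were called higher, against 20.4% of all genes.

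**Figure D4:**
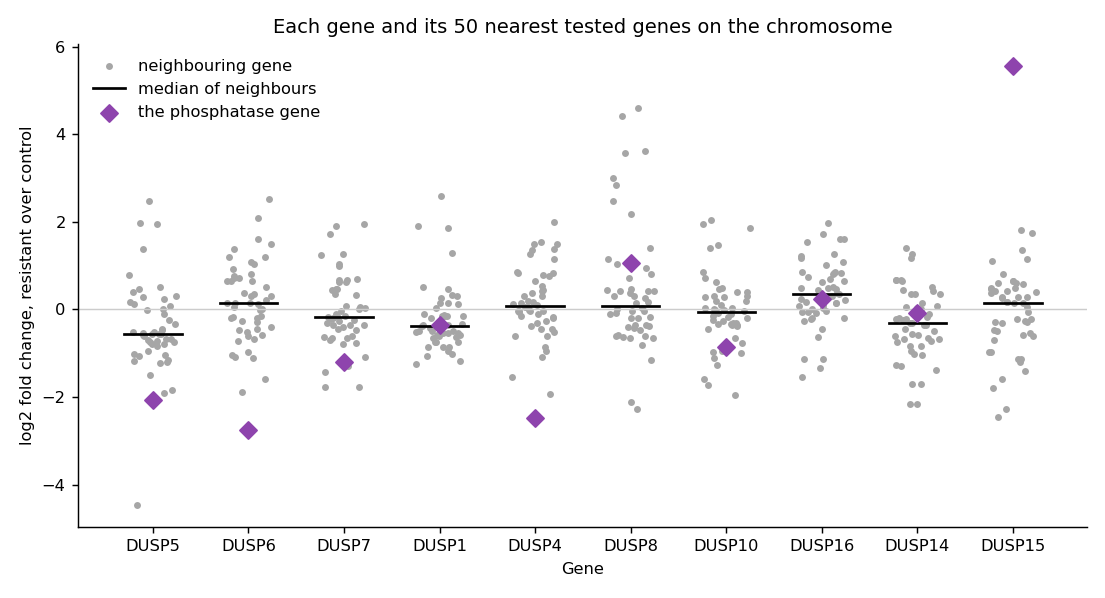
log2 fold change, resistant over control, of each phosphatase gene (purple diamond), of the 25 tested genes on either side of it (grey points) and their median (black line). DUSP15, DUSP6 and DUSP4 lie outside their neighbours, and DUSP1, DUSP16 and DUSP14 lie among them.

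Among the other DUSP genes, 4 of 13 tested (16 listed) passed, where 41.5% of all genes did: 3 were lower (DUSP9, DUSP23 and STYX) and 1 was higher (DUSP22), with a median log2 fold change of -0.09. With median centring the count lower was 6. DUSP9, the third cytoplasmic ERK phosphatase, had 200, 210 and 186 normalized read counts in resistant libraries, against 265, 259 and 248 in control libraries (log2 fold change -0.37, limma adjusted p = 0.0099). DUSP22, an atypical phosphatase linked to JNK signalling, had 513, 435 and 467 in resistant libraries, against 314, 340 and 320 in control libraries (log2 fold change 0.53). DUSP23 and STYX, a catalytically inactive relative, had log2 fold changes of -0.58 and -0.29. DUSP2, an inducible nuclear relative of DUSP1 and DUSP4, averaged 181 ± 46.7 in resistant libraries and 184 ± 7.96 in control libraries (SD, n = 3) and did not pass; it was singled out after its value was seen.

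Transcripts of the MAP kinases, the substrates of these phosphatases, were called in both directions. Of 12 tested, 6 were higher and 4 lower (MAPK6, MAPK9, MAPK12, MAPK13), where 20.4% of all genes tested were higher and 21.1% lower. The median log2 fold change of the MAP kinases was 0.14. MAPK3, which encodes ERK1, averaged 1090 ± 77.3 normalized read counts in resistant libraries and 933 ± 70.9 in control libraries (SD, n = 3; log2 fold change 0.22, limma adjusted p = 0.0231). MAPK7, which encodes ERK5, and MAPK14, which encodes p38 alpha, had log2 fold changes of 0.37 and 0.29. The JNK genes went opposite ways: MAPK8 (JNK1) averaged 732 ± 41.5 in resistant libraries and 611 ± 44.6 in control libraries (0.26), and MAPK9 (JNK2) averaged 638 ± 76.5 in resistant libraries and 968 ± 7.63 in control libraries (-0.61). MAPK13, p38 delta, averaged 313 ± 12.7 in resistant libraries and 593 ± 7.08 in control libraries (-0.92). MAPK6 and MAPK12 had log2 fold changes of -0.33 and -0.28. With median centring, which moves the median of all genes by -0.13, 3 MAP kinases were called higher in place of 6. Limma without trend called 3 MAP kinases higher and 2 lower.

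Upstream of the kinases, calls went both ways, where 20.4% of all genes tested were called higher and 21.1% lower. Of 6 MAP kinase kinases tested, MAP2K2 (0.18) and MAP2K5 (0.45) were higher, and MAP2K3 (-0.65), which activates p38, and MAP2K4 (-0.20), which activates JNK, were lower. The count higher was 1 without resistant library 2, control library 1 or control library 3, and with limma without trend or median centring. The count lower was 1 without resistant library 2, control library 2 or control library 3. It was also 1 with DESeq2, limma without trend or quantile normalization, and 3 with median centring. Of 17 stress-branch MAP3K genes, 9 were higher and 4 lower, against 20.4% and 21.1% of all genes tested. Of these 17 genes, 6 were called higher with median centring and 6 with limma without trend. Their median log2 fold change was 0.31, and MAP3K9 (1.10) and MAP3K1 (0.57) had the smallest adjusted p among those higher. The lower ones were MAP3K5 (-1.35), MAP3K3 (-0.86), MAP3K20 (-0.82) and TAOK1 (-0.38), and MAP3K5, the stress-activated kinase ASK1, averaged 308 ± 29.6 normalized read counts in resistant libraries and 786 ± 41.8 in control libraries (SD, n = 3).

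Among other phosphatases of MAP kinases, 4 of 8 tested were lower (PPM1B, PPM1D, PPP2CA, PPP2R1A) and 1, PTPRR, was higher. Of all genes tested, 21.1% were lower and 20.4% higher. PTPRR, a tyrosine phosphatase that binds ERK, had 113, 97.8 and 101 normalized read counts in resistant libraries, against 34.9, 30.1 and 24.1 in control libraries, and its log2 fold change was 1.78. PPP2CA, the catalytic subunit of PP2A, averaged 1408 ± 88.2 in resistant libraries and 2698 ± 101 in control libraries (SD, n = 3; log2 fold change -0.94).

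Targets of ERK other than the phosphatases were mostly lower: 16 of 21 were called lower and 2 higher (SPRY1 and LIF), with a median log2 fold change of -0.74. Of all genes tested, 21.1% were lower and 20.4% higher. SPRY4, a feedback inhibitor of receptor signalling, had 40.8, 41.5 and 51.3 normalized read counts in resistant libraries, against 423, 482 and 491 in control libraries, and CCND1, cyclin D1, had a log2 fold change of -2.14. LIF, a cytokine, had 5517, 4558 and 4136 in resistant libraries, against 2528, 2500 and 2351 in control libraries. In the list of AP-1 and stress kinase output, 7 of 20 were higher and 3 lower (FOS, IER2, MAPKAPK3), with a median of 0.19; 41.5% of all genes passed. The count lower was 5 without resistant library 1, median centring gave 6 higher and 5 lower, and limma without trend gave 4 higher and 2 lower. It was also 2 lower with edgeR, limma-voom, quantile normalization or no filter, and without control library 1 or 3. FOS was near the threshold (limma adjusted p = 0.0406). ATF3 had 4547, 5816 and 5789 normalized read counts in resistant libraries, against 1034, 973 and 1040 in control libraries, and GADD45B had a log2 fold change of 1.23. The ERK output list was drawn up with earlier results of these data known and is not independent evidence of the direction of the ERK-selective members.

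**Figure D5:**
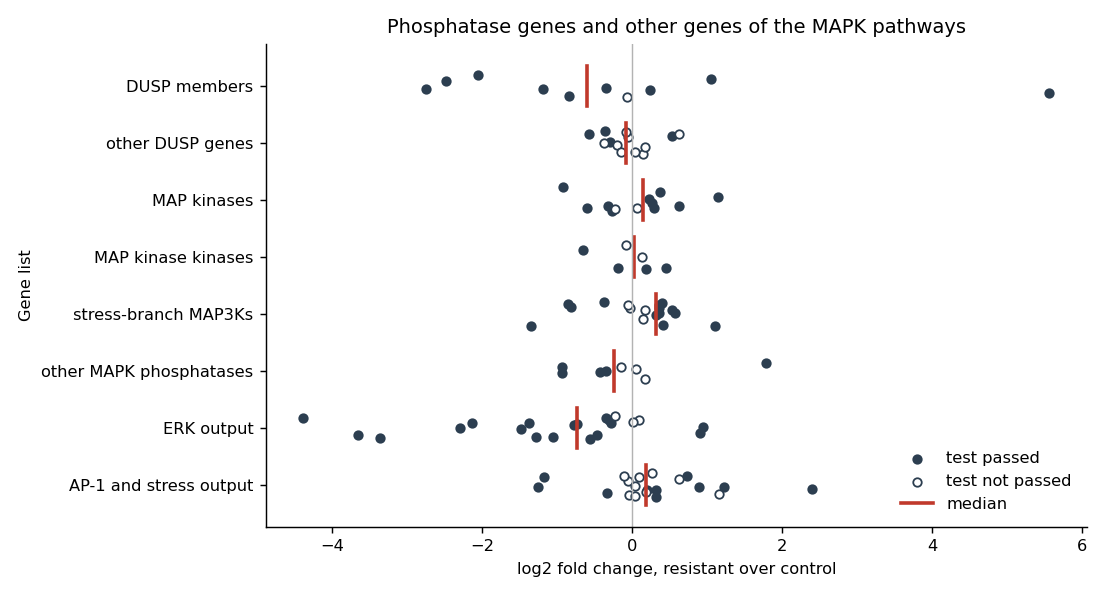
log2 fold change, resistant over control, of the 10 phosphatase genes and of each tested gene in 7 lists of MAPK pathway genes; filled points passed the test, open points did not, and red bars are medians. The ERK output median is -0.74, and the medians of the kinase lists lie between 0.02 and 0.31.

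By distance over the 6 libraries, in log2(value + 1) centred on each gene's mean, the genes most like DUSP6, among protein-coding genes with a mean of at least 100 normalized read counts, were TFPI2 (0.20), S100A9 (0.21) and HMGA2 (0.23), where a smaller distance is closer. Their log2 fold changes were -2.60, -2.80 and -2.69. Those most like DUSP10 were EIF5A2 (0.11), CRIPT (0.12) and HJURP (0.16), which followed its higher value in control library 3. With 3 libraries a group, this likeness mostly reflects the size of the group difference.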

How the data were processed

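Bulk RNA-seq libraries of resistant and control cells (3 each) were analysed. The authors deposited 1 table per library on a signal scale, read counts divided by a size factor. Aligner, counter and normalization tool are not given in the sources used here, and GRCh38 is the build that the submitters' processing notes name. Strand handling is not stated. All values were whole multiples of 1 number per library within 0.001 reads (100%), so whole reads were recovered. Library totals were 15174126 to 16588479 reads, which limits the precision of low genes. The exact interval of the DUSP15 read ratio covers counting error only. Intervals of log2 fold changes come from limma and rest on the spread between libraries. The deposited gene length, in bases and listed as an other unit by the authors, was used for a check only.

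Values were tested as log2(value + 1) with limma 3.58.1 (R 4.3.3, trend, robust, two-sided, Benjamini-Hochberg) over genes with a value of at least 1 in 3 or more libraries. An exact permutation test of 3 against 3 cannot go below 0.1 and was not used. Fold changes on this scale understate low genes. Alternatives were edgeR 4.0.16 and DESeq2 1.42.0 and limma-voom on recovered reads, limma without trend, no filter, quantile normalization, pseudocounts of 0.1 and 10, median centring, a filter at 5, the replicate number as a block, and each library left out. The pipeline was tested on simulated data. Named genes were all members, the 2 smallest adjusted p per direction of each list, all genes of a list direction with 5 or fewer calls, and 6 fixed MAP kinases, of which 1 is not reported here. Members and lists were chosen with earlier results of these data known. Protein sequences were not analysed here.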

Additional observations from a re-analysis of the deposited data

How the results depend on the processing

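DUSP4, DUSP5, DUSP6, DUSP7, DUSP8, DUSP10 and DUSP15 kept direction and call under all 17 alternatives run for each; DUSP1 and DUSP16 did not. DUSP1 lost its call with limma without trend (log2 fold change -0.35) and quantile normalization (log2 fold change -0.18). DUSP16 lost its call with DESeq2 (log2 fold change 0.24), limma without trend (0.23), median centring (0.10) and no filter (0.23). It also lost it with the replicate block (log2 fold change 0.23, limma adjusted p = 0.0502). With libraries left out, its log2 fold change ran from 0.16 to 0.29. DUSP14, not called, ran from -0.15 to 0.023 with libraries left out. The cause was not tested. The replicate block changed no other member's call; same-numbered libraries had correlations of deviations of -0.0015, 0.00011 and 0.0067, so the numbers were not taken to pair them. Members called higher ranged from 2 to 3 and lower from 5 to 6. Over the fixed lists 28 genes were called higher, 18 with limma without trend, and 36 lower. By list and direction 219 of 238 counts were within 1.5 times the main count. Median centring moved the share of calls that were higher to 35.8%, from 49.1%. With 10 neighbours on each side the median was -0.41 for DUSP5, -0.27 for DUSP7, -0.63 for DUSP1, 0.59 for DUSP8, 0.13 for DUSP16 and -0.036 for DUSP15. With the longest transcript as length, 7 of 10 members kept their rank in control libraries. Ranks in resistant libraries were not checked with that length, so they hold for the exon length only. The 2 lengths differed most unevenly between members: DUSP15 had 3791 bases of exon and a longest transcript of 1732, and DUSP8 had 4616 and 4480.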
